A study of Mus musculus with 5 samples.

Results

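The chemokine receptors described here were 9 genes, Cxcr4, Ccr2, Cxcr2, Cx3cr1, Ccr7, Cxcr5, Cxcr3, Ccr1 and Ccr6, of the 32285 genes counted in the deposited matrices. They were found by symbol in the gene tables, and each matched 1 gene. The list was chosen by measured values of these libraries, the lower Cxcr4 level of decoy-treated B cells among them. Differences of the 9 receptors between decoy and PBS are therefore given as a description, with no p-value. Counts of receptors called by a test stand beside the share of all genes called, and nothing is read from them.

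Chemokine receptors are G protein-coupled receptors that direct migrating leukocytes along gradients of small secreted proteins, the chemokines. In the spleen, Cxcr5 draws B cells to follicles through Cxcl13, Ccr7 draws lymphocytes and mature dendritic cells to the T cell zone through Ccl19 and Ccl21, and Cxcr4 binds Cxcl12, which retains haematopoietic cells in the bone marrow. Ccr2 carries monocytes out of the bone marrow, Cxcr2 carries neutrophils, and Cxcr3 guides activated lymphocytes to sites where interferon has induced Cxcl9 and Cxcl10.

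The sequences that precede the transcription starts of 3 of the receptors are shown, because the oligonucleotide under study is a decoy for a DNA-binding factor and Cxcr4 and Cxcr3 were the receptors that differed most in B cells, while Ccr6 did not. Each is the 250 bases before an annotated start, from RefSeq on GRCm38.p6, given 5′ to 3′ on the strand of the gene, with motif matches in capitals.
Cxcr4 (chr1:128592300-128592549, minus strand): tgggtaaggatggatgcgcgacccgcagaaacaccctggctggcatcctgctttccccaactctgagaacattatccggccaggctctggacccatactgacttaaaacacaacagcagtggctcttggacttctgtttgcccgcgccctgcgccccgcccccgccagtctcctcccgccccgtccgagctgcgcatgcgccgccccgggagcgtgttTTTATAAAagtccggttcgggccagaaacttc
Cxcr3 (chrX:101734148-101734397, minus strand): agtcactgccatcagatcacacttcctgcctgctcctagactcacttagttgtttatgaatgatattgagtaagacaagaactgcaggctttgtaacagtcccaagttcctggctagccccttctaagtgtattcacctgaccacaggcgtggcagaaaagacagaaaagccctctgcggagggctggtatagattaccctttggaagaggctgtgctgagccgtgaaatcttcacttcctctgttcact
Ccr6 (chr17:8235793-8236042, plus strand): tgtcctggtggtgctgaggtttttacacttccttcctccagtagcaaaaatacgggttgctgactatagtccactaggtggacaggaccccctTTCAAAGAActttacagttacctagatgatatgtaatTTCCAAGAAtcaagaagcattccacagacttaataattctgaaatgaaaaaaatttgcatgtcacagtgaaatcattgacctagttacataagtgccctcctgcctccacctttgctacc
Motifs were searched on both strands in all 32851 windows of this length. The STAT motif TTCNNNGAA was in 7.02% of them, the FOXO motif TGTTTAC in 3.17% and the TATA motif TATAAA in 12.4%. The TATA motif was chosen after the Cxcr4 sequence had been seen. The Cxcr4 window held 2 overlapping TATA matches on opposite strands, whose first bases lay 32 and 30 bases before the start, and no STAT or FOXO letters. The Cxcr3 window held none of the 3 motifs. The Ccr6 window held 2 STAT matches, at 157 and 120 bases before the start. Windows were found for 7 of the 9 receptors (8 windows, since Ccr6 has 2 starts), and STAT letters were in those of 1 receptor, Ccr6. A match is a run of letters, not a measured binding site.

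In GENCODE vM21 on GRCm38, Cxcr4 (ENSMUSG00000045382) lies at chr1:128588199-128592293 on the minus strand, and Cxcr3 (ENSMUSG00000050232) at chrX:101731535-101734269 on the minus strand. Ccr7 (ENSMUSG00000037944) lies at chr11:99144196-99155077, Cxcr2 (ENSMUSG00000026180) at chr1:74153989-74161246 and Ccr1 (ENSMUSG00000025804) at chr9:123962124-123968692. No annotated gene overlaps these 5. Cxcr5 overlaps 1 gene on the other strand, Bcl9l, and the annotated span of Cx3cr1 overlaps 9 genes on either strand. Counts of this pair could include reads from neighbours on the other strand if the counting ignored strand. Gorasp1, Csrnp1 and Xirp1 lie on the strand of Cx3cr1, so strand alone would not separate their reads.

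The mice were of the C57BL/6 strain and had been given CMM cells, a GFP-marked acute myeloid leukaemia, by the intravenous route. Treatment began at about 1% GFP-positive leukaemia cells in blood and was given 3 times, every other day, with a CpG-STAT3 decoy oligonucleotide (Decoy, n = 4 libraries, numbered 2, 3, 5 and 6) or with PBS (n = 1 library). The decoy joins DNA that binds the transcription factor STAT3 to a CpG oligonucleotide, the ligand of the endosomal receptor TLR9. All libraries are labelled as spleen cells sorted as positive for both GFP and c-Kit, the stem cell factor receptor. The labels do not give the age or sex of the mice, or say whether the libraries came from separate animals. SEs and p-values therefore rest on counting error and on the spread between Decoy libraries, not on a known spread between animals. GFP is not in the gene tables. With 1 PBS library, the spread between PBS animals was not measured.

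Expression was measured in single cells as unique molecular identifiers (UMIs), so that each count stands for 1 captured RNA molecule. The Decoy libraries held between 56490098 and 234251245 UMIs and 1934 to 6251 cells after filtering, and the PBS library held 579333323 UMIs and 16135 cells. Cells were grouped without the receptors among the clustering genes and were named from marker lists as resembling a type. The leukaemic class, which resembled mast cells, made up 5270, 387, 2 and 1409 cells in Decoy 2, 3, 5 and 6, and 14932 cells in PBS. Levels are given as CPM, the UMIs of a gene scaled to a common total of all UMIs of the same class and library, with no further scaling. Kit had between 43.5 and 51.8 CPM in that class in the Decoy libraries that held enough cells, and 51.4 in PBS. In B cell-like cells Kit had 4 UMIs over the 4 Decoy libraries and 0 in PBS, so these cells go against the sort label. Pairs of libraries shared at most 45 cell barcodes.

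**Figure D1:**
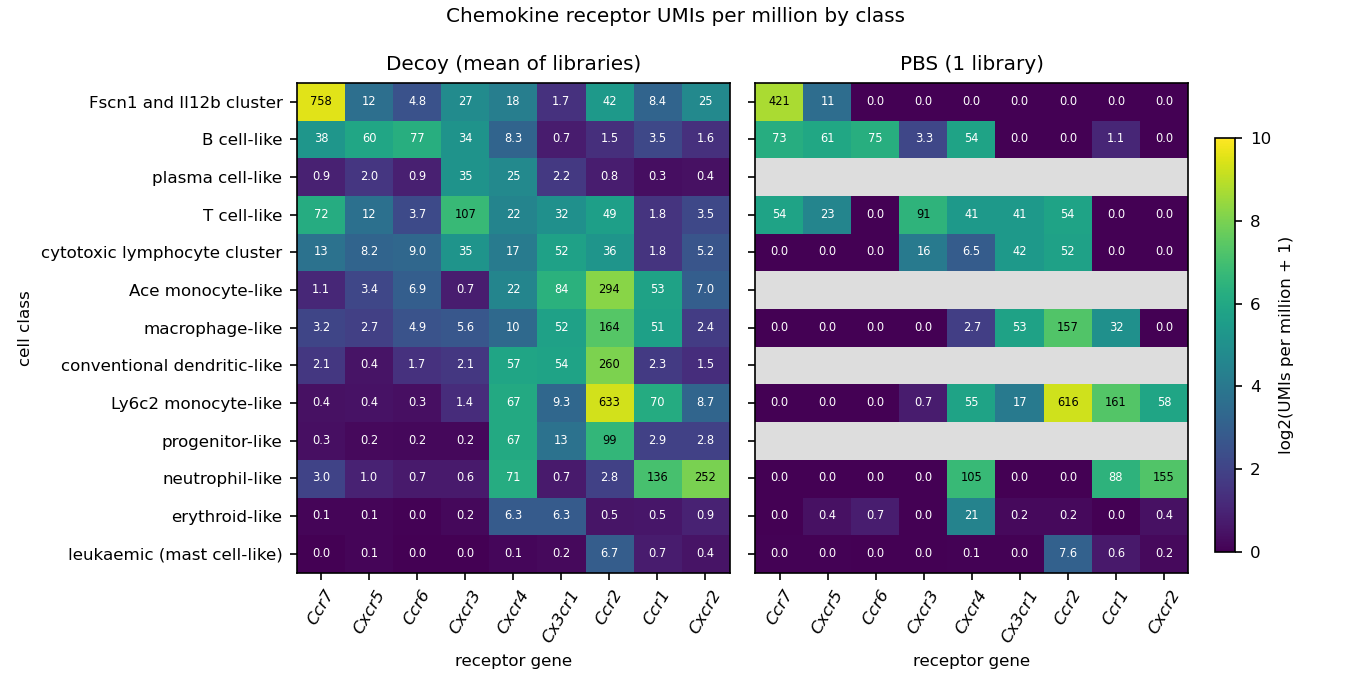
Mean level of each receptor (columns) in each cell class (rows), in CPM, with the Decoy libraries that held at least 20 cells of the class on the left and the PBS library on the right. Grey rows had fewer than 20 PBS cells. Cxcr5 and Ccr6 are highest in the B cell-like row, Cxcr2 in the neutrophil-like row and Ccr2 in the Ly6c2 monocyte-like row of both panels, and Ccr1 in the neutrophil-like row for Decoy and the Ly6c2 monocyte-like row for PBS.

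Over all kept cells, Ccr2 UMIs were found in 5877 of 31141 cells, the most of the 9 receptors, and Ccr7 UMIs in 837, the fewest. The receptors divided by class, as the map of levels by class shows. Ccr7 was highest in an unnamed cluster led by Fscn1 and Il12b, genes of mature dendritic cells, with 1009 and 507 CPM in the 2 Decoy libraries that held at least 20 such cells and 421 CPM in PBS. Cxcr5 and Ccr6 were highest in B cell-like cells, at 59.5 ± 4.6 and 76.8 ± 3.0 CPM (SD, n = 4 Decoy libraries).

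Ccr2 was highest in monocyte-like cells with Ly6c2, at 633 ± 76.7 CPM in Decoy libraries (SD, n = 4), above every other class. Cxcr2 was highest in neutrophil-like cells, at 252 ± 38.9 CPM in Decoy libraries (SD, n = 4). Ccr1 was highest there in the Decoy libraries, at 101 to 170 CPM, but in PBS its level was 88.1 CPM in neutrophil-like cells and 161 CPM in Ly6c2 monocyte-like cells. Cxcr3 was highest in T cell-like cells at 107 ± 55.0 CPM, followed by a cytotoxic lymphocyte cluster, plasma cell-like cells and B cell-like cells at 35.4, 34.6 and 34.4 CPM, whose ranges overlapped. Cx3cr1, the receptor for Cx3cl1, was highest in monocyte-like cells with Ace, at 83.7 ± 49.1 CPM (SD, n = 3), with overlapping ranges in dendritic-like cells, the cytotoxic cluster and macrophage-like cells.

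Cxcr4 had no single class. Its Decoy means were 71.2 ± 12.3 CPM in neutrophil-like cells, 67.0 ± 12.1 in progenitor-like cells and 66.5 ± 8.27 in Ly6c2 monocyte-like cells (SD, n = 4 each), and these ranges overlapped. B cell-like cells were 11th of 14 classes in this order in the Decoy libraries, at 8.28 ± 1.16 CPM. In PBS the B cell-like level was 54.4 CPM, close to the 54.6 CPM of PBS Ly6c2 monocyte-like cells. Over the 14 class means, the genes whose pattern was most like that of Cxcr4 were Slc35e1 (Pearson r 0.865), Mgst2 (0.853), Ly6c2 (0.847), Tmem165 (0.816) and Zfp422 (0.810), the highest of 8807 genes compared. The class means share libraries and depth, so this is a description.

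B cell-like cells numbered 138, 347, 1150 and 456 in Decoy 2, 3, 5 and 6, and 187 in PBS. All 10 B cell markers were detected in every library, with summed levels of 5914 to 7028 CPM in Decoy and 8081 CPM in PBS. Cxcr4 was lower in decoy-treated B cell-like cells. It had 7.80, 8.47, 7.06 and 9.78 CPM in Decoy 2, 3, 5 and 6 (11, 40, 88 and 39 UMIs), against 54.4 CPM in PBS (49 UMIs, exact Poisson 95% interval 40.2 to 71.9). Every Decoy library was below the PBS library, and no Decoy level reached the lower bound of the PBS interval. The list was chosen with this difference in view and the interval covers counting error only, so this is a description and no test. The log2 fold change was -2.72 ± 0.28 (SE, edgeR, Decoy over PBS). The summed counts gave a ratio of 0.145, with a counting interval of 0.105 to 0.203.

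**Figure D2:**
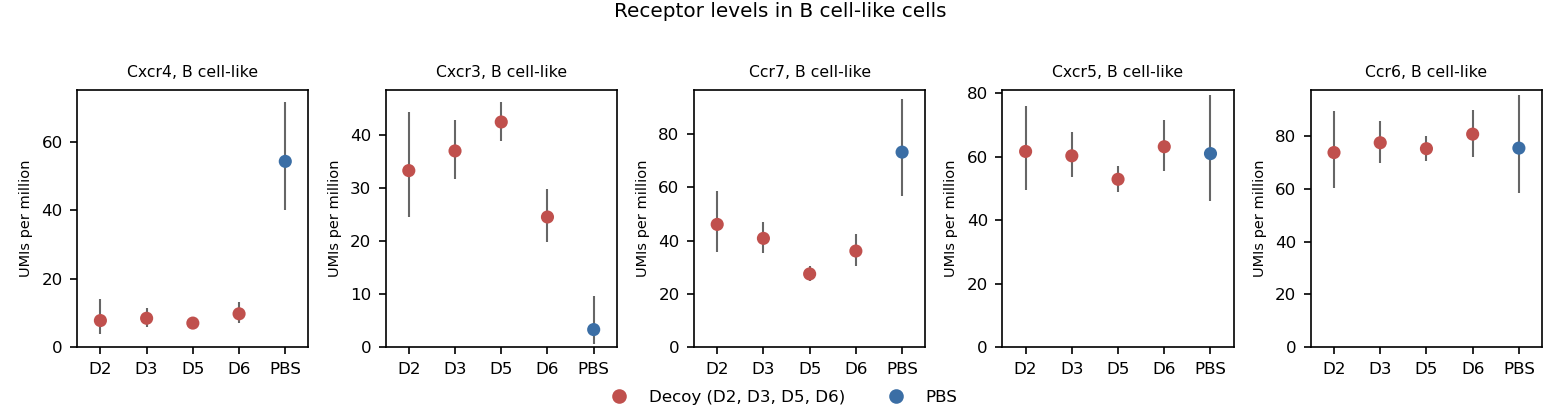
Levels of 5 receptors in B cell-like cells (vertical axis, CPM) in the Decoy libraries D2, D3, D5 and D6 and in the PBS library. Points are libraries and bars are exact Poisson 95% intervals, which cover counting error only; Cxcr4 is low and Cxcr3 is high in all 4 Decoy libraries, whereas Cxcr5 and Ccr6 overlap.

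The share of positive cells went the same way. B cell-like cells with a Cxcr4 UMI made up 7.25%, 10.7%, 6.35% and 6.80% in Decoy 2, 3, 5 and 6, and 19.8% in PBS, although PBS cells were shallower (median 3800 UMIs, against 6144 to 9442 in Decoy). When each cell was thinned to 2000 UMIs (leaving out 2 Decoy and 3 PBS cells), the expected shares were 1.39%, 2.28%, 1.94% and 2.40% in Decoy and 11.1% in PBS (exact Clopper-Pearson 95% interval 6.77 to 16.3%). The difference was -9.09 percentage points. In the leukaemic class Cxcr4 was near 0. Its thinned share there was 0.0151% to 0.0793% in Decoy 2, 3 and 6 and 0.00889% in PBS. Decoy 5 had 2 such cells and was left out. Median depths of these cells were 28378 to 38130 UMIs in Decoy and 31789 UMIs in PBS. They were deeper than the B cell-like cells, so their shares set no background for the B cell-like shares. The part of stray Cxcr4 RNA in the B cell-like shares was not tested.

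Cxcr3, the receptor for Cxcl9 and Cxcl10, moved the other way. It had 33.3, 37.0, 42.5 and 24.6 CPM in Decoy 2, 3, 5 and 6 (47, 175, 530 and 98 UMIs), against 3.33 CPM in PBS. The PBS value rests on 3 UMIs in 2 cells, and the Poisson interval is 0.686 to 9.73 CPM. All Decoy levels were above that interval. The summed counts gave a Decoy over PBS ratio of 11.3, with a counting interval of 3.86 to 54.9. Thinned shares were 4.38%, 5.02%, 5.09% and 2.50% in Decoy and 0.388% in PBS.

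Ccr7 was lower in Decoy by a smaller amount. It had 46.1, 40.8, 27.5 and 36.1 CPM in Decoy 2, 3, 5 and 6 and 73.2 CPM in PBS (66 UMIs, interval 56.6 to 93.1), and the log2 fold change was -1.02 ± 0.27. The 4 Decoy levels lay below the PBS interval. Cxcr5, the follicle receptor, had 61.7, 60.3, 52.9 and 63.2 CPM in Decoy and 61.0 CPM in PBS, a log2 fold change of -0.03 ± 0.21. Ccr6, which binds Ccl20 and marks mature B cells, had 73.8, 77.5, 75.2 and 80.7 CPM in Decoy and 75.4 CPM in PBS, a log2 fold change of 0.05 ± 0.19. For this pair the PBS level lay within the Decoy range.

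Positive-cell shares of this pair depended on depth. Cells with a Cxcr5 UMI made up 38.4%, 49.9%, 40.0% and 35.7% of B cell-like cells in Decoy 2, 3, 5 and 6 and 24.6% in PBS, but 11.5%, 13.7%, 11.8% and 12.9% in Decoy and 12.1% in PBS after thinning to 2000 UMIs. Cells with a Ccr6 UMI made up 34.8%, 40.9%, 38.6% and 35.3% in Decoy and 26.2% in PBS, and after thinning 12.7%, 13.9%, 13.1% and 13.5% in Decoy and 14.01% in PBS. For Ccr7 the thinned shares were 8.78%, 8.37%, 6.55% and 7.92% in Decoy and 16.3% in PBS. At a common depth the PBS share was thus next to or within the Decoy range for Cxcr5 and Ccr6, and above it for Ccr7 and Cxcr4.

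Ccr2, Ccr1, Cxcr2 and Cx3cr1, receptors of myeloid cells, were near 0 in B cell-like cells, with Decoy means of 1.53, 3.46, 1.58 and 0.710 CPM and 0 or 1 UMI each in PBS. Of the 9 receptors, 7 passed the filter on low counts. Cxcr4 was called lower and Cxcr3 higher by edgeR, 2 of 7, beside 2.1% of the 10551 genes tested in this class. DESeq2 called 2 as well, Ccr7 and Cxcr3, and gave no adjusted p for Cxcr4. The list was chosen with this contrast in view, and nothing is read from that share.

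RNA of other cells differed between the libraries too. Erythroid markers (11 genes) summed to 56.5 to 149 CPM in Decoy B cell-like cells and to 4231 CPM in PBS. Markers of the leukaemic class (9 genes) summed to 0.802 to 46.1 CPM in Decoy and 75.4 CPM in PBS, with 5 of the 9 at 0 UMIs in PBS. Leukaemic cells carried 0.190 CPM of Cxcr4 at most, and PBS erythroid-like cells carried 21.1 CPM, below the PBS B cell-like level. PBS neutrophil-like cells carried 105 CPM, above that level, and PBS Ly6c2 monocyte-like cells 54.6 CPM, close to it. The part of RNA from any of these classes in the B cell results was not tested.

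B cell-like cells fell into 4 sub-clusters, numbered here 1 to 4. Sub-cluster 1 led with the follicular genes Fcer2a, Fcmr and Ighd. It held 45.7%, 29.7%, 41.8% and 54.6% of B cell-like cells in Decoy 2, 3, 5 and 6 and 90.4% in PBS. Sub-cluster 2 led with Cd83 and Fcmr, and held 7.25 to 11.4% in Decoy and 6.42% in PBS. Sub-cluster 3, led by Slit3 and Cr2, held 26.1 to 35.7% in Decoy and 1.60% in PBS, and sub-cluster 4, led by Cdh17, Tmed6 and Mef2b with high Mki67 and Top2a, held 8.99 to 25.9% in Decoy and 1.60% in PBS. The makeup of the class differed between Decoy and PBS, so Cxcr4 was also read within it.

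**Figure D3:**
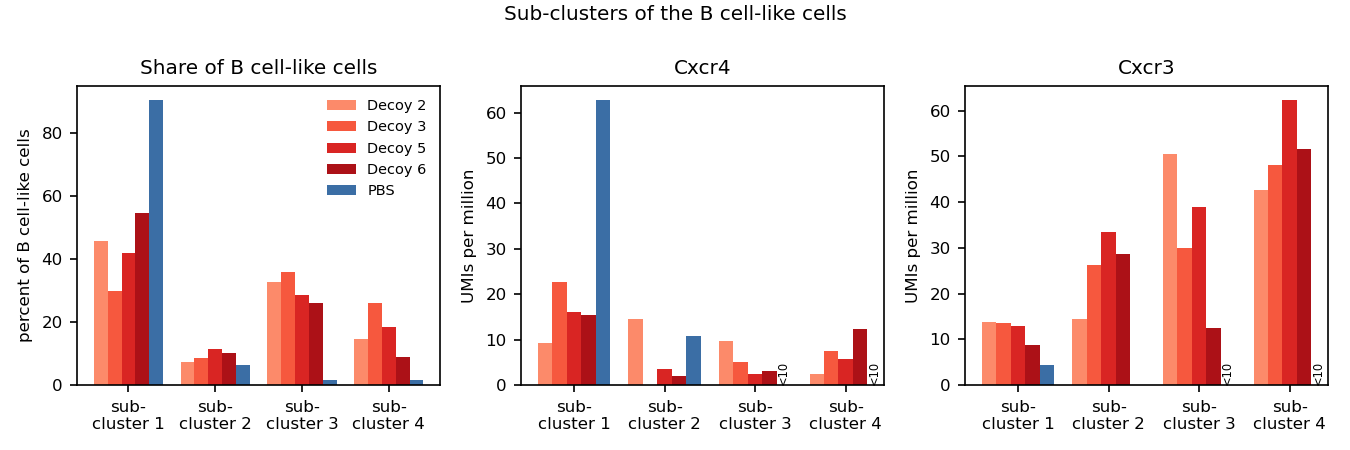
Share of B cell-like cells in each of 4 sub-clusters (left, percent) and the levels of Cxcr4 (middle) and Cxcr3 (right) in CPM, by library; bars marked <10 are not shown because the library had fewer than 10 such cells. In sub-cluster 1 Cxcr4 is 9.21 to 22.6 in Decoy and 62.7 in PBS, and Cxcr3 in Decoy is lowest there.

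Within sub-cluster 1, Cxcr4 had 9.21, 22.6, 16.1 and 15.5 CPM in Decoy 2, 3, 5 and 6, against 62.7 CPM in PBS (43 UMIs). The Decoy and PBS levels did not overlap, and the log2 fold change was -1.78 ± 0.31, smaller than over all B cell-like cells. Some markers of B cell subsets differed within sub-cluster 1 too. Vpreb3 is linked to the assembly of immunoglobulin in immature B cells. It averaged 104 ± 9.72 CPM in Decoy (SD, n = 4) and 306 CPM in PBS there (log2 fold change -1.41 ± 0.17). Mki67, a gene of dividing cells, averaged 2.46 ± 3.17 CPM in Decoy and 29.2 CPM in PBS (-2.91 ± 0.76). Vpreb3 was 1 of 3 genes tested there from a list for transitional B cells. In that list the log2 fold changes of Cd24a and Bcl2l11 were 0.30 ± 0.22 and -0.55 ± 0.46. Mki67, picked after its values were seen, was 1 of 4 tested from a list for germinal centre and cycling cells. There Top2a had -1.16 ± 0.52, Fas 1.76 ± 1.11 and Bcl6 0.21 ± 0.43. The part of Vpreb3 or Mki67 in the Cxcr4 difference was not tested. Sub-cluster 2 had 14.5, 0, 3.56 and 1.91 CPM in Decoy and 10.8 CPM in PBS, where 12 cells were measured, and these overlapped. With the same sub-cluster weights in every library, over sub-clusters 1 and 2, Cxcr4 averaged 13.9 ± 3.50 CPM in Decoy (SD, n = 4) and 53.5 CPM in PBS, a log2 difference of -1.94. Sub-clusters 3 and 4 had 3 PBS cells each and gave no comparison.

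Cxcr3 was unevenly spread over the same sub-clusters. It had 8.84 to 13.8 CPM in sub-cluster 1, 14.5 to 33.5 in sub-cluster 2, 12.4 to 50.6 in sub-cluster 3 and 42.6 to 62.3 in sub-cluster 4 of the Decoy libraries. In PBS it had 4.37 CPM in sub-cluster 1 (3 UMIs) and 0 UMIs in the 12 cells of sub-cluster 2. Thinned shares in sub-cluster 1 were 1.86%, 1.82%, 1.87% and 1.29% in Decoy 2, 3, 5 and 6 and 0.428% in PBS. The PBS interval of 0.0152 to 3.29% held all the Decoy shares, so the PBS values within sub-clusters rest on few counts. At equal weights over sub-clusters 1 and 2, Cxcr3 averaged 14.7 ± 1.89 CPM in Decoy and 3.60 CPM in PBS, against 34.4 and 3.33 CPM over all B cell-like cells. At the same weights Ccr7 averaged 49.2 ± 4.47 CPM in Decoy and 85.0 CPM in PBS, Cxcr5 69.3 ± 8.19 and 61.4 CPM, and Ccr6 78.4 ± 7.17 and 82.3 CPM.

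Other genes of the pathway and of B cell positioning were counted from lists that did not include the 9 receptors. The median log2 fold change over all genes tested in B cell-like cells was 0.03. Of 12 regulators described for Cxcr4 and glucocorticoid-induced genes, 11 were tested and 3 fell, with a list median of -0.52. Tsc22d3, a glucocorticoid-induced leucine zipper protein, had 35.5, 47.2, 28.6 and 51.1 CPM in Decoy and 161 CPM in PBS (log2 fold change -1.98 ± 0.26, edgeR adjusted p = 0.00221). Klf2, a transcription factor that keeps naive lymphocytes quiescent and supports their exit receptors, had 223, 186, 178 and 281 CPM in Decoy and 555 CPM in PBS (-1.34 ± 0.21, adjusted p = 0.00706). Txnip, an inhibitor of thioredoxin and of glucose uptake, averaged 85.2 ± 9.65 CPM in Decoy (SD, n = 4) and 166 CPM in PBS (-0.96 ± 0.18, adjusted p = 0.0191). Foxo1, a transcription factor of this list named after its values were seen, was 62.2 ± 8.29 CPM in Decoy and 63.2 CPM in PBS.

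**Figure D4:**
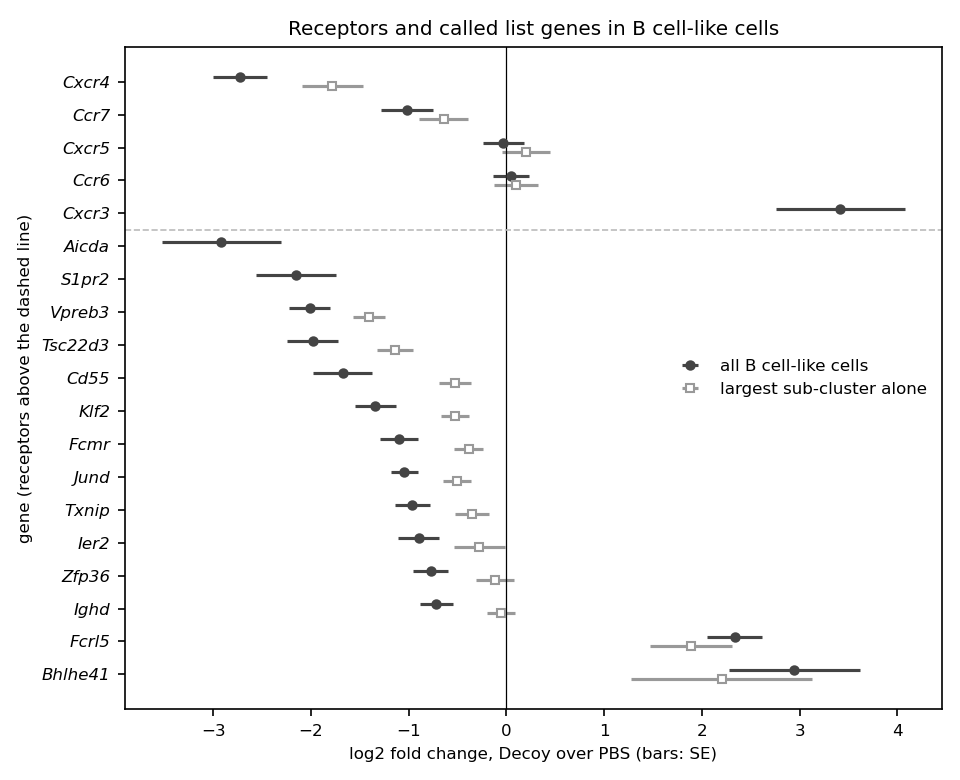
Log2 fold change, Decoy over PBS, with its SE for 5 receptors (above the dashed line, a description) and for the list genes called by edgeR in B cell-like cells (below it); filled circles are all B cell-like cells and open squares are the largest sub-cluster alone. Most open squares lie nearer 0, and genes without a square did not pass the count filter there.

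Of 15 genes of lymphocyte positioning and adhesion, 15 were tested and 1 fell, with a median of -0.15. S1pr2, a receptor that confines germinal centre B cells, averaged 6.32 ± 1.58 CPM in Decoy and 26.6 CPM in PBS (log2 fold change -2.15 ± 0.41, adjusted p = 0.0191), but none of its 24 PBS UMIs lay in the largest sub-cluster, and DESeq2 gave no adjusted p for it. Of 27 genes of receptor signalling and desensitisation, 26 were tested and 0 were called by edgeR, 4 had an unadjusted p under 0.05, and DESeq2 called 0. In that list Rac2 averaged 749 ± 34.8 CPM in Decoy and 616 CPM in PBS, and Gnai2, the main inhibitory G protein of these receptors, 500 ± 11.4 and 428 CPM.

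Of 17 B cell activation genes, 17 were tested and 0 were called by edgeR, 2 had an unadjusted p under 0.05, and DESeq2 called 0. Cd83 averaged 190 ± 20.8 CPM in Decoy and 175 CPM in PBS, and Nfkbia, the inhibitor of NF-kB, 160 ± 25.3 and 230 CPM. Follicular genes fell in 3 of 4 cases (Cd55, Fcmr and Ighd), and Fcrl5, of the list for B1 and age-associated B cells, rose to 82.9 ± 9.84 CPM in Decoy, against 16.6 CPM in PBS (2.34 ± 0.28, adjusted p = 0.00138). In the handling list of immediate early and heat shock genes 3 of 15 tested fell, Jund, Ier2 and Zfp36. The list median was 0.24, above the median of 0.03 over all genes, so the list as a whole was not lower. Jund averaged 255 ± 15.7 CPM in Decoy and 530 CPM in PBS. Ier2 did not pass with DESeq2 (adjusted p = 0.0648). Whether sample handling had a part in the Cxcr4 difference was not tested.

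Within sub-cluster 1 alone, 2.68% of 6615 genes were called by edgeR. From the list of Cxcr4 regulators and glucocorticoid-induced genes, 2 of 9 tested fell. Tsc22d3 averaged 85.4 ± 23.8 CPM in Decoy (SD, n = 4) and 204 CPM in PBS there (-1.14 ± 0.18). Klf2 had 422, 462, 419 and 481 CPM in Decoy and 714 CPM in PBS (-0.52 ± 0.15). Of 12 handling genes tested there, Jund fell (-0.51 ± 0.15) and Fos rose (3.00 ± 0.59). Fos, an immediate early transcription factor, was picked after its values were seen. Fos had 16.1, 91.9, 32.3 and 5.16 CPM in Decoy and 4.37 CPM in PBS (3 UMIs), so Decoy 6 lay close to PBS. Fos was called although its Decoy levels spread widely (36.4 ± 38.6 CPM, SD, n = 4). Calls in sub-cluster 1 are therefore not a measure of the spread between Decoy libraries. Ier2 (-0.28 ± 0.26, adjusted p = 0.752) and Zfp36 (-0.11 ± 0.20, adjusted p = 0.896) did not pass in sub-cluster 1, and neither did the 4 follicular genes.

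Ligands of the receptors were counted in the same cells. Mif, which also binds Cxcr4, averaged 652 ± 119 CPM in Decoy and 463 CPM in PBS in B cell-like cells, and Ccl5 31.5 ± 18.1 and 18.9 CPM. Cxcl12, Cxcl9 and Cxcl10 were picked after their values were seen. Cxcl12, the main ligand of Cxcr4, had 0 UMIs in B cell-like and in Ly6c2 monocyte-like cells of all 5 libraries. In B cell-like cells Cxcl10, a ligand of Cxcr3, had 36.2, 23.1, 19.8 and 4.26 CPM in Decoy and 0 UMIs in PBS. Cxcl9 had 2.84, 25.2, 5.61 and 8.27 CPM in Decoy and 1 UMI in PBS. In sub-cluster 1, which held most PBS B cell-like cells, Cxcl10 had 23.0, 0, 1.43 and 0 CPM in Decoy and 0 UMIs in PBS. Cxcl9 there had 0, 0, 1.43 and 3.68 CPM in Decoy and 1.46 CPM in PBS. Of the 23 ligands 7 were tested in this class and 0 were called by edgeR, 2 had an unadjusted p under 0.05, and DESeq2 called 0. Among 14 other chemokine receptors, 3 were tested in B cell-like cells and 0 were called, 1 at an unadjusted p under 0.05 and 0 by DESeq2. Ackr2, a scavenging receptor for inflammatory chemokines, had 5.27 to 7.20 CPM in Decoy and 0 UMIs in PBS. In sub-cluster 1 Ackr2 had 0, 4.52, 2.51 and 2.21 CPM in Decoy and 0 UMIs in PBS.

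In Ly6c2 monocyte-like cells (125, 80, 204 and 106 cells in Decoy 2, 3, 5 and 6, and 87 in PBS), Cxcr2 and Ccr1 were lower in Decoy. Cxcr2 had 18.8, 4.72, 3.69 and 7.70 CPM in Decoy and 58.2 CPM in PBS (162 UMIs, interval 49.6 to 67.9), a log2 fold change of -2.75 ± 0.55. Decoy 2 stood above the other Decoy libraries, and without it the fold change was -3.53. Ccr1, a receptor for Ccl3, Ccl5 and Ccl6, had 84.0, 72.0, 56.5 and 67.4 CPM in Decoy and 161 CPM in PBS, a log2 fold change of -1.21 ± 0.18. For neither gene did the Decoy and PBS levels overlap. Cells with a Cxcr2 UMI made up 28.0%, 13.8%, 3.92% and 8.49% in Decoy and 57.5% in PBS, and thinned shares were 4.16%, 0.9502%, 0.504% and 1.51% in Decoy and 11.2% in PBS. Thinned shares for Ccr1 were 17.4%, 14.7%, 12.1% and 13.9% in Decoy and 28.1% in PBS.

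**Figure D5:**
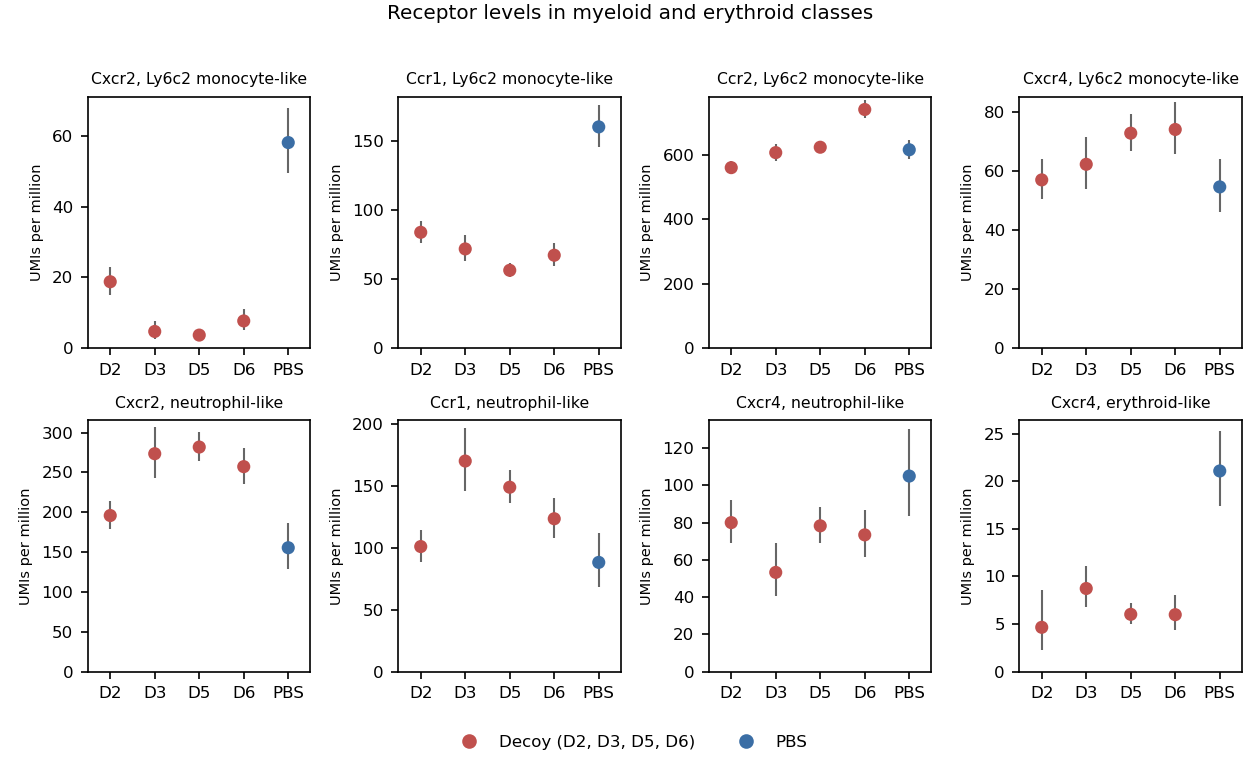
Levels in CPM for Cxcr2, Ccr1, Ccr2 and Cxcr4 in Ly6c2 monocyte-like cells (top), and for Cxcr2, Ccr1 and Cxcr4 in neutrophil-like and Cxcr4 in erythroid-like cells (bottom), in Decoy libraries D2, D3, D5 and D6 and in PBS. Bars are exact Poisson 95% intervals for counting error; Cxcr2 is low in Decoy monocyte-like cells and high in Decoy neutrophil-like cells.

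The neutrophil marker RNA in the same cells differed as well. The 10 neutrophil markers summed to 38439, 17013, 13584 and 19207 CPM in Decoy 2, 3, 5 and 6 and to 39359 CPM in PBS. Decoy 2 had the highest marker sum and the highest Cxcr2 of the Decoy libraries. Its marker sum was close to that of PBS, while its Cxcr2 level was 18.8 CPM, against 58.2 CPM in PBS. The 7 basophil markers summed to 147 to 736 CPM in Decoy and 3399 CPM in PBS. The part of either in the Cxcr2 and Ccr1 values was not tested.

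Ccr2 in Ly6c2 monocyte-like cells had 560, 607, 624 and 741 CPM in Decoy and 616 CPM in PBS, which lay within the Decoy range (log2 fold change 0.03 ± 0.13). Cxcr4 had 57.0, 62.2, 72.8 and 74.0 CPM in Decoy and 54.6 CPM in PBS (0.28 ± 0.17); Decoy 2 and 3 lay within the PBS counting interval of 46.3 to 64.0 CPM and Decoy 5 and 6 above it. Of 5 receptors that passed the filter, 2 were called lower by edgeR, beside 3.43% of 10154 genes, and DESeq2 called 1, Ccr1. Nfkbia, the inhibitor of NF-kB, fell to 65.5 ± 14.5 CPM in Decoy, against 184 CPM in PBS (-1.51 ± 0.21, adjusted p = 0.00691). Hif1a and Fkbp5 fell as well, to 49.2 and 23.7 CPM in Decoy, against 79.4 and 41.3 CPM in PBS. They were 2 of the 11 genes tested from the list of Cxcr4 regulators and glucocorticoid-induced genes. Fkbp5 did not pass with DESeq2 (adjusted p = 0.107).

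In neutrophil-like cells (133, 62, 216 and 119 cells in Decoy, 57 in PBS) Cxcr2 had 196, 274, 282 and 257 CPM in Decoy and 155 CPM in PBS, a log2 fold change of 0.74 ± 0.21. Ccr1 had 101, 170, 149 and 123 CPM in Decoy and 88.1 CPM in PBS (0.65 ± 0.28). Cxcr4, which holds neutrophils in the marrow, had 79.9, 53.2, 78.2 and 73.4 CPM in Decoy and 105 CPM in PBS (-0.49 ± 0.23). All Decoy libraries lay on 1 side of PBS for each of the 3 genes. Thinned shares of cells with a Cxcr2 UMI were 40.0%, 46.9%, 50.6% and 49.7% in Decoy and 29.3% in PBS. The 10 neutrophil markers summed to 402176 to 446328 CPM in Decoy and 426008 CPM in PBS, and all 10 were detected in each library. The class joined clusters led by Ltf, by Cstdc4 and by Fcnb, and Cxcr2 was among the top genes of the Cstdc4 cluster. A marker sum does not show the shares of these clusters, which are not given by library here. The part of this makeup in the receptor differences was not tested. Of 4 receptors tested 0 were called by edgeR, 2 had an unadjusted p under 0.05 and DESeq2 called 0, beside 0.27% of 8158 genes by edgeR.

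In T cell-like cells (24, 35, 87 and 36 cells in Decoy, 40 in PBS) Cxcr3 had 64.8, 183, 111 and 69.0 CPM in Decoy and 90.7 CPM in PBS. Cxcr4 had 18.5, 40.3, 8.93 and 20.3 CPM in Decoy and 40.8 CPM in PBS (9 UMIs). Ccr7 had 78.6, 51.3, 87.5 and 69.0 CPM in Decoy and 54.4 CPM in PBS. The PBS level lay within the Decoy range for Cxcr3 and Ccr7, and just above it for Cxcr4. When T cell-like cells and the cytotoxic cluster were summed, 0 of 8 receptors were called by edgeR, 0 had an unadjusted p under 0.05 and DESeq2 called 0, beside 0.38% of 9480 genes by edgeR. In the cytotoxic cluster Cx3cr1 had 69.3, 53.7, 38.1 and 46.6 CPM in Decoy and 42.0 CPM in PBS (13 UMIs).

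Progenitor-like cells numbered 42, 39, 79 and 27 in Decoy 2, 3, 5 and 6, and 17 in PBS, too few for a PBS level. Cxcr4 had 52.1, 69.2, 65.0 and 81.6 CPM in the Decoy libraries, and a Cxcr4 UMI was found in 78.6% to 93.7% of the cells. Ccr2 had 80.1, 86.0, 129 and 99.7 CPM there.

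Plasma cell-like cells were found in the Decoy libraries (32, 76, 197 and 75 cells) and not among the 16135 PBS cells. They carried Cxcr4 at 24.8, 20.8, 22.5 and 31.1 CPM, above the range of Decoy B cell-like cells, and Cxcr3 at 49.7, 22.5, 31.7 and 34.6 CPM, which overlapped that range. Macrophage-like cells carried Ccr2 at 267, 141, 137 and 110 CPM in Decoy and 157 CPM in PBS, and Cx3cr1 at 68.6, 48.1, 45.3 and 44.5 CPM in Decoy and 53.1 CPM in PBS, where 22 cells were measured. Ccr1 in the same cells had 90.9, 34.2, 46.0 and 32.2 CPM in Decoy and 31.9 CPM in PBS. Decoy 2 was the highest for each of the 3 genes, and the PBS level was within the Decoy range for Ccr2 and Cx3cr1.

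In erythroid-like cells Cxcr4 had 8.73, 6.01 and 5.97 CPM in Decoy 3, 5 and 6 and 21.1 CPM in PBS; Decoy 2, with 33 cells and 4.65 CPM, was below the 50 cells required for the fit. The log2 fold change was -2.84 ± 0.22 with TMM scaling and -1.63 with the library total alone, where the median of all genes was 1.26 in place of 0.06. Cx3cr1 had 6.77, 4.47 and 5.05 CPM in those Decoy libraries and 1 UMI in PBS. The cells themselves differed: the 11 erythroid markers summed to 12481 to 26881 CPM in Decoy and 433621 CPM in PBS, with median depths of 51278 to 70139 and 6661 UMIs. The 2 receptors called of 3 tested by edgeR (1 by DESeq2) stand beside 44.4% of 10616 genes called, and the state of the cells and the treatment cannot be told apart here.

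In leukaemic cells Ccr2 had 5.33, 7.32 and 7.43 CPM in Decoy 2, 3 and 6 and 7.60 CPM in PBS, and Cxcr4 0.0822, 0.157 and 0.190 CPM in Decoy and 0.0522 CPM in PBS (17, 2, 8 and 26 UMIs). Decoy 5 had 2 such cells and was left out. Of 6 receptors tested 0 were called by edgeR, 0 had an unadjusted p under 0.05 and DESeq2 called 0, beside 0.607% of 14337 genes by edgeR. Ackr1, an atypical receptor that binds chemokines without G protein signalling, had 46.6, 70.2 and 65.5 CPM in Decoy and 34.8 CPM in PBS. It did not pass edgeR's test (0.88 ± 0.20, adjusted p = 0.101) and passed with DESeq2 (adjusted p = 0.000345). Ccl5, a ligand of Ccr1, rose to 3.80 ± 1.27 CPM in Decoy (SD, n = 3), against 0.726 CPM in PBS (2.43 ± 0.38, edgeR adjusted p = 0.0289). Ccl5 over all kept cells was 67.9, 636 and 604 CPM in Decoy 2, 3 and 6 and 6.66 CPM in PBS, and in T cell-like and cytotoxic cells it averaged 7147 CPM in Decoy and 4278 CPM in PBS. The 12 T cell markers summed to 2.25, 2.28 and 2.49 CPM in leukaemic cells of those Decoy libraries and to 1.67 CPM in PBS. The part of RNA from other cells in the Ccl5 value was not tested. Over all kept cells, whose class makeup differs between libraries, 0 of 9 receptors and 0 of 16001 genes were called by edgeR (0%), 1665 genes had an unadjusted p under 0.05, and DESeq2 called 2015 genes, the 9 receptors among them.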

How the data were processed

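The 5 libraries were made with droplet chemistry that reads the 3′ ends of transcripts. The deposited values were counts, not normalized, with 1 whole number of UMIs for each gene in each barcode, and the authors made them with Cell Ranger 5.0.0 per the file headers. The submitters' processing notes list Cell Ranger 3.1, Seurat 4, DESeq2 and the build mm10; whether the counting used strand is not given in the sources used here.

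Barcodes with fewer than 500 genes, fewer than 1000 UMIs or over 10% mitochondrial UMIs were dropped. Doublets marked by scrublet (scanpy 1.11.5) were removed. It marked 0.0160% to 0.361% of barcodes in Decoy and 6.30% in PBS. These lay below the 1.96% to 5.49% and 15.5% expected from loading, so doublets remain in the Decoy and the PBS libraries. Cells were clustered with leidenalg 0.10.2 on 2000 variable genes and 30 components, leaving out all chemokine receptors, and named from marker lists. Class names were rebuilt here and may differ from those of the authors. UMIs were summed per library and class and tested with edgeR 4.0.16 (quasi-likelihood test, TMM scaling, low-count filter, Benjamini-Hochberg adjustment, threshold 0.05) in R 4.3.3 where PBS and at least 3 Decoy libraries had 50 cells. With 1 PBS library, the spread came from 3 residual degrees of freedom among Decoy libraries, or 2 in erythroid-like and leukaemic cells. Adjusted p-values in the report are from this test over all genes of the class. The script was tested on simulated data.

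Intervals are exact and cover counting error at 95%. Thinned shares are expected values under sampling without replacement, with intervals from the rounded expected count. The receptors and gene lists were chosen with earlier results of these data known. 1 gene of these lists is not reported here, and counts and medians leave it out. Of each other list, up to 4 called genes were picked by size of change, or the 2 with the highest level where none was called. Not every gene so picked is named. A positioning and adhesion gene called higher in Ly6c2 monocyte-like cells and one in neutrophil-like cells are among those left out. Alternatives were DESeq2 1.42.0, other scaling, filters, doublet handling, thinning depths and leaving out each Decoy library.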

Additional observations from a re-analysis of the deposited data

Results flagged for a closer look

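Among the Decoy libraries, 53 sets of 4 levels with at least 20 UMIs were screened for a single library standing apart, by the gap to its neighbour as a share of the whole range against the 95% critical value of Dixon. Chance flags about 5% of such sets, and 3 passed. Cxcr4 in the cytotoxic lymphocyte cluster was highest in Decoy 3, at 32.9 CPM against 10.3 to 13.1 CPM in the other Decoy libraries, a ratio of 0.877. In macrophage-like cells Cxcr4 was lowest in Decoy 2, at 4.44 CPM against 11.0 to 12.2 CPM, a ratio of 0.845. Cx3cr1 was highest in the same library and class, at 68.6 CPM against 44.5 to 48.1 CPM, a ratio of 0.849. Decoy 2 held 91 macrophage-like cells, and the other Decoy libraries held 420 to 748.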

How the results depend on the processing

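One PBS library limits every comparison: its own variation was not measured. The Cxcr4 log2 fold change in B cell-like cells was -2.72, ran between -2.82 and -2.61 when each Decoy library was left out, and was -3.01 with at most 5% mitochondrial UMIs, -1.78 in the largest sub-cluster alone and -1.94 with equal sub-cluster weights. DESeq2 gave -2.72 and no adjusted p. The thinned share difference of -9.09 points was -4.92 at 1000 UMIs, -10.5 at 4000 UMIs and -12.0 without thinning, and -9.22 to -8.88 without 1 Decoy library. For the other receptor fold changes, in single classes or over all kept cells, there were 384 alternative values. Of these, 375 stayed within their spread and 9 moved further. No estimate that was large beside its SE changed sign. Among values for Cxcr4 in B cell-like cells and for counts of called genes, 77 stayed within their limits and 32 moved further. Some of those that stayed could not move. The other resolution left B cell-like, neutrophil-like and erythroid-like classes with unchanged cell numbers and calls.

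Counts of called genes depended on the settings, and the cause was not tested. In B cell-like cells 222 became 694 with no low-count filter, 56 with at most 5% mitochondrial UMIs and 119 to 331 without 1 Decoy library (119 without Decoy 5). In T cell-like and cytotoxic cells 36 became 199 with no filter, 100 by DESeq2, 56 with doublets kept and 25 to 62 without 1 Decoy library. In Ly6c2 monocyte-like cells 348 became 606 with no filter, 215 with doublets removed at the expected rate and 162 to 485 without 1 Decoy library. In neutrophil-like cells 22 became 131 with no filter, 89 by DESeq2, 8 with doublets kept and 8 to 39 without 1 Decoy library. In erythroid-like cells 4713 (2021 higher, 2692 lower) became 8268 (7175 higher, 1093 lower) with the library total alone, and 4284 to 4967 without 1 Decoy library. In leukaemic cells 87 became 49 with the library total alone, 518 with no filter, 245 by DESeq2 and 23 to 508 without 1 Decoy library. Over all kept cells 0 became 2015 by DESeq2 and 0 to 2463 without 1 Decoy library. For T cell-like and cytotoxic cells the other resolution, the 5% mitochondrial limit and a minimum of 3000 UMIs were not run, with too few PBS cells. No paired analysis was possible because the Decoy and PBS libraries share no replicate numbers.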
